A study of Mus musculus with 12 samples.

Results

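The 10 genes described here are canonical transcriptional targets of the tumour suppressor p53, chosen by symbol from a fixed list: Cdkn1a, Plk2, Ccng1, Mdm2, Bax, Phlda3, Eda2r, Trp53inp1, Zmat3 and Sesn1. All 10 were found among the 27179 Entrez gene IDs of the deposited count table, and all 10 were among the 12910 genes that passed the filter on low counts. The cells were MC38-idAdpgkG, made from MC38, a mouse colon carcinoma line of strain C57BL/6, by stable transfection of a construct for Adpgk(R304M), a neoantigen joined to turboGFP whose expression can be induced and whose protein can be degraded. Every group, the control included, received 20 ng/mL mouse interferon-gamma for 51 h before harvest. The control group had nothing else, the doxycycline group also had 1 µg/mL doxycycline for 51 h, and the dTAG-13 group had 1 µM dTAG-13, a small molecule that brings a tagged protein to the cereblon ubiquitin ligase, for the last 3 h. The doxycycline plus dTAG-13 group had both, with dTAG-13 added after 48 h. Each group had 3 libraries, which were technical replicates of 1 biological sample, so the errors and p-values measure how libraries of 1 culture varied, and each comparison is of single cultures.

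p53 is a transcription factor that is held at a low level by the ubiquitin ligase Mdm2 and that accumulates when DNA damage, oncogene activity or ribosomal stress interrupts this control. It binds pairs of a short half-site in promoters and introns and activates genes that stop the cell cycle, promote apoptosis, repair DNA or restrain growth. Mdm2 is itself a target, which closes a negative feedback loop. Many of these genes also have other inputs, such as serum and stress signalling for Plk2 and FOXO factors for Sesn1. Whether p53 is functional in MC38-idAdpgkG is not given in the sources used here, and p53 protein was not measured.

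The 10 genes did not move as 1 block. In doxycycline cells compared with control, Plk2 and Eda2r were lower, Sesn1 was higher, and 6 genes did not pass the test; Trp53inp1, on few reads, passed with an adjusted p of 0.045 that was lost in 8 of 20 alternatives. With dTAG-13, Mdm2, Bax and Eda2r rose by 15.2% to 25.3% whether or not doxycycline was present, and Zmat3 fell in both settings. Cdkn1a, the best known readout of p53 activity, was 15.5% higher with dTAG-13 alone and 21.4% lower when dTAG-13 was added to doxycycline cells, and these opposite differences were themselves different by an interaction test. Plk2 showed the reverse arrangement.

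The 12 libraries held 22165538 to 32809573 counts each. Adpgk, which the label doxycycline predicts to be high, was at 1338 ± 20.1 CPM with doxycycline and 1369 ± 15.7 CPM with doxycycline plus dTAG-13 (mean ± SD, n = 3), against 160.5 ± 2.49 CPM in control and 181.3 ± 4.18 CPM with dTAG-13, where CPM is the normalised read count relative to library size. dTAG-13 acts on the protein, so this transcript does not check the dTAG-13 labels. Markers of epithelium were close to absent: none of 6 passed the filter, their summed level was 0.0314 to 0.68 CPM in every library, and Epcam had no read in any library. Of 6 intestinal epithelial markers only Cdh17 passed the filter, at under 0.4 CPM on average in every group, and Cdx2 and Muc2 had no read. The mesenchymal markers Vim, Fn1, Cdh2, Zeb1 and Pdgfrb were detected, with a summed level for the list of 2350 to 2410 CPM in control, 2110 to 2130 CPM with doxycycline, 1700 to 1720 CPM with dTAG-13 and 1480 to 1520 CPM with both. Col1a1, also on the list, did not pass the filter, at 0.042 to 0.094 CPM on average. Most of the sum was Vim and Fn1 (1502 and 774.3 CPM in control). With doxycycline Vim, Fn1 and Cdh2 were lower than in control, but Pdgfrb (0.68 on the log2 scale, edgeR adjusted p 4.97e-07) and Zeb1 (0.14, adjusted p 0.00671) were higher. Leukocyte and endothelial markers summed to 0.345 to 1.47 CPM and 1.92 to 4.15 CPM. The part of the change in mesenchymal markers in the results on p53 targets was not tested. In these bulk libraries a lower level can be fewer expressing cells or less RNA per cell, which cannot be told apart.

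Promoters of 4 of the genes are shown. In Cdkn1a and Plk2 the differences with dTAG-13 depended on doxycycline, and in Mdm2 and Bax the interaction test was not passed. A link between promoter sequence and these differences was not tested. Each window runs from 250 bases before to 50 bases after a RefSeq start (GRCm38.p6, 300 bases, 5′ to 3′ on the gene's strand). They lie at chr17:29090729-29091028 on the + strand for the upstream of 2 Cdkn1a starts, chr13:110394794-110395093 on the + strand for Plk2, chr10:117710709-117711008 on the - strand for Mdm2 and chr7:45466849-45467148 on the - strand for Bax. Capitals mark exact matches to the p53 half-site consensus in Cdkn1a, Mdm2 and Bax, and to TGACGTCA, the cyclic AMP response element, in Plk2.
Cdkn1a: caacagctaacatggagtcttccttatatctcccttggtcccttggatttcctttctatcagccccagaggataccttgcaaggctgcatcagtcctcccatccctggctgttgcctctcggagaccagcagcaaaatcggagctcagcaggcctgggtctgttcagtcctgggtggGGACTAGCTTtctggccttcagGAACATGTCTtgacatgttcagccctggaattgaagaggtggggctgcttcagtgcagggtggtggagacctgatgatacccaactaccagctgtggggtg
Plk2: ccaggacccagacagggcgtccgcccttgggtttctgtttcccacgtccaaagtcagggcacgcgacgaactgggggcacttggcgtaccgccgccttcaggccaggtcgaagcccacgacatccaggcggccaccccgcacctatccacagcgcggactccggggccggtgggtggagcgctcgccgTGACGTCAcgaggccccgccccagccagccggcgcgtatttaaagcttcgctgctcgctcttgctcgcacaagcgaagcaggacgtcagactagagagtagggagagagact
Mdm2: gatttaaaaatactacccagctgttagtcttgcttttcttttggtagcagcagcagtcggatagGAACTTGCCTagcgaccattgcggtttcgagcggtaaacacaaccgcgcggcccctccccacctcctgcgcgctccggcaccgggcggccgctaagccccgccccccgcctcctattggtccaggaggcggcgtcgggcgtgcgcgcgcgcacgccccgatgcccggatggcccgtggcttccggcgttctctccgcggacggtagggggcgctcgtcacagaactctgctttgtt
Bax: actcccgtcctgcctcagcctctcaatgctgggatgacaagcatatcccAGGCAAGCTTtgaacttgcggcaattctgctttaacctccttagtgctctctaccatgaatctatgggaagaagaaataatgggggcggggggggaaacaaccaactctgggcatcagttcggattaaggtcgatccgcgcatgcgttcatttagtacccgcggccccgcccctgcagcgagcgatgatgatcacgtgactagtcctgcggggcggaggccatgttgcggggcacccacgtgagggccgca

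Of the 10 genes, 8 had at least 1 window in the promoter table and 2, Trp53inp1 and Zmat3, had none. Both strands were searched for the p53 half-site consensus, the CArG box, the core TATAAA of the TATA box, the GC box GGGCGG and the element TGACGTCA. The upstream Cdkn1a window held 2 half-sites, from 73 to 64 and from 51 to 42 bases before the start, and a pair of half-sites at most 13 bases apart occurred in 0.0731% of all 32851 windows. Mdm2, Ccng1, Bax and the downstream of 2 Sesn1 windows held 1 half-site each, against 8.36% of all windows with at least 1. Plk2, Phlda3, Eda2r, the downstream Cdkn1a window and the upstream Sesn1 window held none. No window of the 10 genes held a CArG box (1.63% of all windows), TGACGTCA occurred in Plk2 alone (1.79% of all windows), and TATAAA in Eda2r alone (13.6%). GGGCGG was in 7 of the 8 genes, all but Ccng1, and in 35.7% of all windows. A match is a description of these letters and not of binding.

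Levels were compared between genes per length, as CPM per kilobase of the longest annotated transcript. In control cells Plk2 was the most abundant at 210.8 ± 1.76, followed by Bax at 67.63 ± 3.25, Phlda3 at 47.13 ± 2.21, Mdm2 at 39.01 ± 0.62, Cdkn1a at 35.85 ± 0.472 and Ccng1 at 23.88 ± 0.292 CPM per kilobase. The remaining 4 were Eda2r at 9.408 ± 0.125, Zmat3 at 4.781 ± 0.0221, Sesn1 at 2.6 ± 0.127 and Trp53inp1 at 0.241 ± 0.0123 CPM per kilobase. Every neighbouring pair in this order was separated by more than the sum of its SDs. With dTAG-13, Phlda3 (49.96 ± 1.85) and Mdm2 (48.76 ± 1.35) could not be told apart by that measure. With both compounds, Cdkn1a (27.48 ± 0.364) stood just above Ccng1 (25.04 ± 0.0986).

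**Figure D1:**
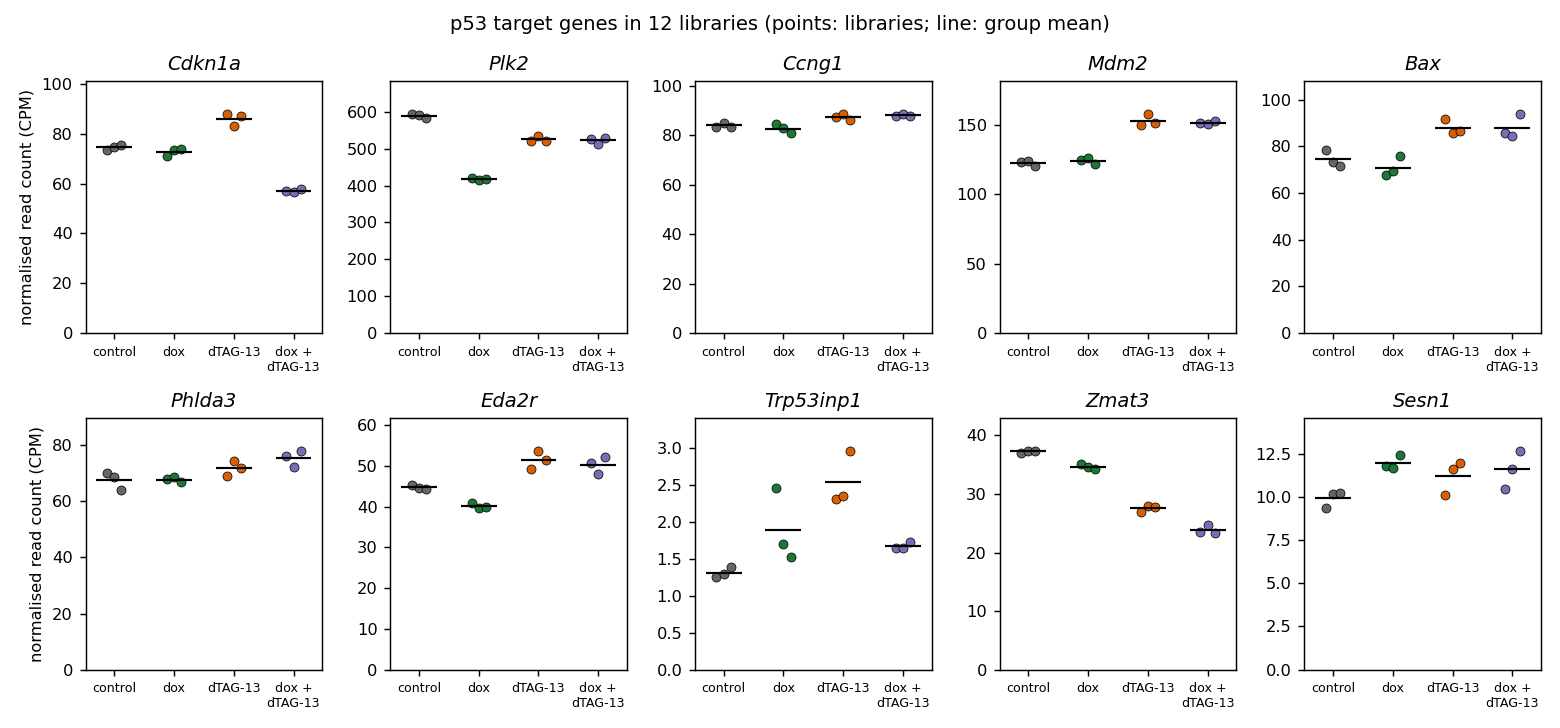
Normalised read count (CPM, linear axis from 0) of the 10 p53 target genes in the 12 libraries. Points are single libraries, coloured by group, and lines are group means; Cdkn1a lies between 56.5 and 58.0 CPM in the 3 libraries with doxycycline plus dTAG-13 and between 83.2 and 88.0 CPM in the 3 with dTAG-13 alone.

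Counts of calls were read against all 12910 genes tested, since large shares of the transcriptome differed between these cultures. A gene was called at an edgeR Benjamini-Hochberg adjusted p under 0.05. For doxycycline against control, 4 of the 10 genes were called, 2 higher and 2 lower, where 33.5% of all genes were called, 14.8% higher and 18.7% lower. Both compounds against dTAG-13 alone gave 3 calls, all lower, where 20.4% of all genes were called, 10.7% higher and 9.64% lower. Against control, dTAG-13 gave 7 calls, 5 higher and 2 lower, where 62.1% of all genes were called, 30.0% higher and 32.1% lower. Added to doxycycline, dTAG-13 gave 8 calls, 6 higher and 2 lower, where 64.1% of all genes were called, 30.7% higher and 33.4% lower. The interaction, which is the dTAG-13 difference with doxycycline minus that without, called 3 of the 10 genes, 1 higher and 2 lower, where 22.9% of all genes were called, 13.2% higher and 9.64% lower. In each comparison the number of the 10 genes called was thus within 2 of what the share of all genes called would give.

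The libraries of the groups compared did not overlap in CPM for 5 of the 10 genes with doxycycline against control (43.9% of all genes) and for 3 where both compounds were compared with dTAG-13 (34.3%). With dTAG-13 they did not overlap for 8 of the 10 against control (65.5% of all genes) and for 8 against doxycycline (67.2%). The median log2 fold change of the 10 with dTAG-13 was 0.19 against control and 0.12 against doxycycline, beside 0.02 and 0.00 over all genes. For doxycycline against control their median was -0.03 beside -0.01, and with dTAG-13 present it was -0.01 beside 0.00. The 2 dTAG-13 comparisons share no library, and neither do the 2 doxycycline comparisons. When only library size was scaled, the median of all genes for dTAG-13 against control moved to 0.11, that of the 10 genes to 0.28, and all 10 were called, 8 higher. With an offset fitted for transcript length and GC content, called the length and GC correction here, the median of the 10 was 0.15 against control and 0.07 against doxycycline. When only library size was scaled, the share of higher genes among all called genes went from 48.3% to 62.8% for dTAG-13 against control and from 44.3% to 61.3% for doxycycline against control. It went from 52.7% to 30.3% where both compounds were compared with dTAG-13, and from 57.8% to 25.2% for the interaction. With the length and GC correction the share of higher calls was 34.3% for doxycycline against control and 69.4% for the interaction.

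**Figure D2:**
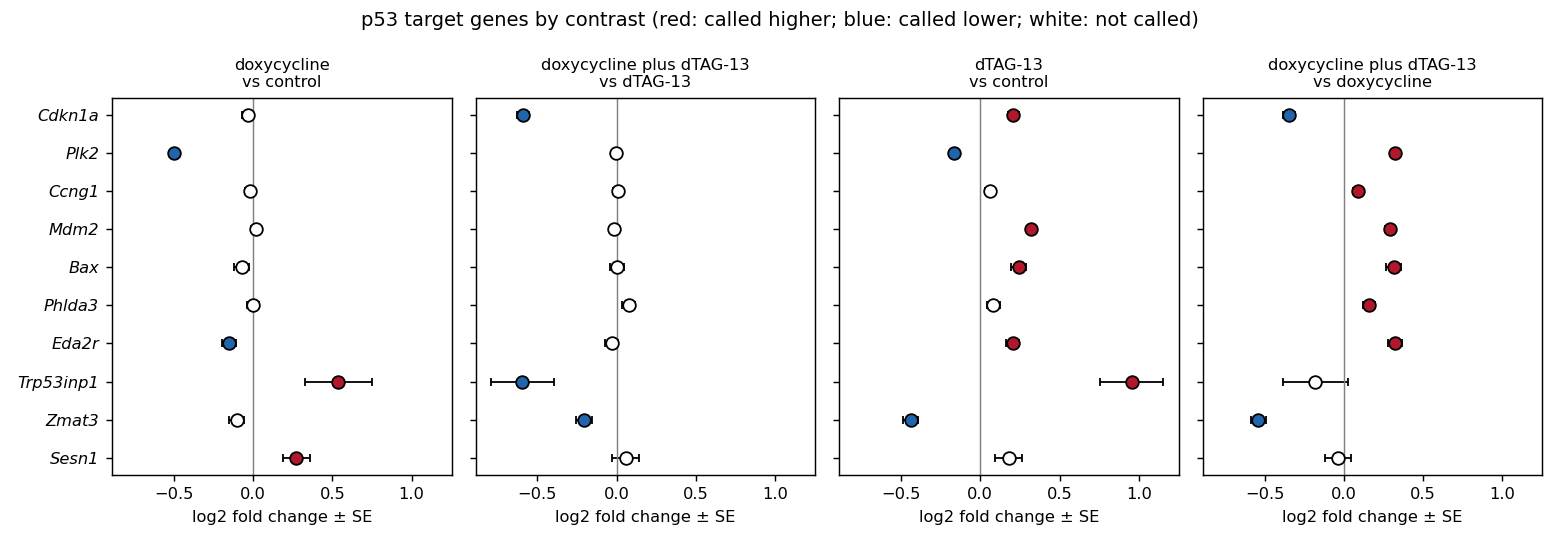
Log2 fold change with standard error (SE) of the 10 p53 target genes in the 4 pairwise comparisons. Red points were called higher, blue points lower and white points were not called; Zmat3 is blue in both dTAG-13 comparisons, and Cdkn1a changes from red (0.21) to blue (-0.35) between them.

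Cdkn1a (Entrez 12575, chr17:29090979-29100722) encodes p21, the inhibitor of cyclin-dependent kinases that carries out p53-dependent cell cycle arrest. Its level was 73.5, 74.8 and 75.4 CPM in control and 70.9, 73.5 and 73.9 CPM with doxycycline. These ranges overlapped, and the log2 fold change was -0.03 (SE 0.0349, edgeR adjusted p 0.486). With dTAG-13 alone the libraries held 88.0, 83.2 and 87.1 CPM, all above control, and the rise was 0.21 on the log2 scale (SE 0.0343, adjusted p 1.5e-06). With doxycycline plus dTAG-13 they held 57.0, 56.5 and 58.0 CPM, below every library of the other 3 groups. Against doxycycline alone the difference was -0.35 on the log2 scale (SE 0.0364, adjusted p 5.25e-11), and against dTAG-13 alone it was -0.59 (SE 0.0359, adjusted p 1.11e-16). The interaction was -0.56 (SE 0.0501, adjusted p 3.15e-11).

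Plk2 (Entrez 20620, chr13:110395044-110400844), a polo-like kinase that responds to p53 and to serum, was the gene with the largest read counts of the 10, at 11817 to 18953 per library. Control libraries held 594.7, 590.8 and 584.9 CPM and doxycycline libraries 419.7, 415.8 and 418.2 CPM. The doxycycline libraries were the lowest of all 12, a fall by 0.50 on the log2 scale (SE 0.0207, edgeR adjusted p 3.01e-22). With dTAG-13 the values were 522.3, 534.3 and 520.9 CPM without doxycycline and 526.7, 514.2 and 529.9 CPM with it, 2 groups that overlapped (log2 fold change -0.01, SE 0.0206, adjusted p 0.879). dTAG-13 therefore went with a lower level against control (-0.17, SE 0.0205, adjusted p 3.36e-09) and a higher level against doxycycline (0.33, SE 0.0208, adjusted p 3.21e-17). The interaction was 0.49 (SE 0.0292, adjusted p 1.17e-16). The value against control was -0.08 when only library size was scaled, still called at an adjusted p of 0.00201.

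Ccng1 (Entrez 12450, chr11:40748552-40755309) encodes cyclin G1, which binds protein phosphatase 2A and acts on Mdm2. It was the steadiest of the arrest genes, at 83.4, 85.0 and 83.1 CPM in control, 84.4, 82.8 and 80.7 CPM with doxycycline, 87.4, 88.6 and 86.3 CPM with dTAG-13 and 87.7, 88.3 and 87.7 CPM with both. The dTAG-13 libraries all lay above those without dTAG-13. The log2 fold change was 0.06 (SE 0.0319, edgeR adjusted p 0.105) against control and 0.09 (SE 0.0324, adjusted p 0.0149) against doxycycline. Neither direction held with the length and GC correction, where the values were -0.14 (adjusted p 0.000159) and -0.06 (adjusted p 0.0888), and the second call was also lost without doxycycline replicate 2 (0.076) or 3 (0.072). The first was called higher, at 0.15, when only library size was scaled.

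Mdm2 (Entrez 17246, chr10:117688875-117710758), the ubiquitin ligase that restrains p53, separated the libraries by dTAG-13 alone. It was at 123.5, 124.1 and 120.4 CPM in control and 124.6, 126.1 and 122.0 CPM with doxycycline, ranges that overlapped (log2 fold change 0.02, SE 0.0279, edgeR adjusted p 0.677). With dTAG-13 it was at 150.2, 158.2 and 151.7 CPM, and with both compounds at 151.6, 150.8 and 152.8 CPM. The rise was 0.32 on the log2 scale without doxycycline (SE 0.0275, adjusted p 2.33e-13) and 0.29 with it (SE 0.0278, adjusted p 5.41e-12). The interaction did not pass the test (-0.03, SE 0.0391, adjusted p 0.606).

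Bax (Entrez 12028, chr7:45461695-45466903), the effector that permeabilises the mitochondrial outer membrane in apoptosis, followed the same arrangement. Its libraries held 78.4, 73.1 and 71.7 CPM in control, 67.5, 69.4 and 75.7 CPM with doxycycline, 91.8, 85.5 and 86.8 CPM with dTAG-13 and 85.7, 84.4 and 93.9 CPM with both. All 6 libraries with dTAG-13 exceeded all 6 without it. The log2 fold change with dTAG-13 was 0.24 (SE 0.0459, edgeR adjusted p 7.08e-05) against control and 0.32 (SE 0.0468, adjusted p 2.45e-06) against doxycycline, the latter 0.19 and still called with the length and GC correction. The doxycycline comparisons gave -0.07 (adjusted p 0.267, but called at -0.125 without doxycycline replicate 3) without dTAG-13 and 0.00 (adjusted p 0.983) with it.

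Phlda3 (Entrez 27280, chr1:135766085-135769134) encodes a pleckstrin homology domain protein that keeps AKT from the membrane. It was at 70.1, 68.7 and 64.1 CPM in control, 67.7, 68.4 and 66.6 CPM with doxycycline, 69.0, 74.3 and 71.9 CPM with dTAG-13 and 76.2, 72.2 and 77.9 CPM with both. Only the last group was separated from its comparison group, doxycycline, by 0.16 on the log2 scale (SE 0.0391, edgeR adjusted p 0.000456), which became 0.10 with the length and GC correction, still called. The value for dTAG-13 alone was 0.08 (SE 0.0387, adjusted p 0.0601), and it was called when only library size was scaled (0.18), with a filter of 1 CPM in 3 libraries (0.09), and without control replicate 1 (0.103) or dTAG-13 replicate 1 (0.106). Without control replicate 3 it was 0.039. The interaction was 0.08 (SE 0.055, adjusted p 0.341), so a difference between the 2 settings was not shown.

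Eda2r (Entrez 245527, chrX:97333837-97377234), a receptor of the tumour necrosis factor family for an ectodysplasin isoform, was lower with doxycycline and higher with dTAG-13. Control libraries held 45.4, 44.5 and 44.2 CPM and doxycycline libraries 40.9, 39.7 and 40.0 CPM, with no overlap and a fall by 0.15 on the log2 scale (SE 0.0438, edgeR adjusted p 0.00525). With dTAG-13 the values were 49.3, 53.7 and 51.5 CPM, and with both 50.6, 48.0 and 52.2 CPM. The rise was 0.20 against control (SE 0.0426, adjusted p 6.8e-05) and 0.33 against doxycycline (SE 0.044, adjusted p 2.38e-08), and the first was 0.12 and still called with the length and GC correction. In the presence of dTAG-13 the doxycycline difference was -0.03 (SE 0.0427, adjusted p 0.661), and the interaction was 0.12 (SE 0.0612, adjusted p 0.155), called at 0.19 (adjusted p 0.0165) with that correction.

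Trp53inp1 (Entrez 60599, chr4:11156441-11174379), a nuclear cofactor that promotes p53 phosphorylation and autophagy, was the scarcest of the 10 and rests on 37 to 86 reads per library. The reads were 40, 40 and 39 in control, 76, 51 and 44 with doxycycline, 72, 73 and 86 with dTAG-13 and 37, 42 and 54 with both. On the CPM scale the group with dTAG-13 alone was the highest on average at 2.541 ± 0.365, against 1.309 ± 0.067 in control, 1.893 ± 0.499 with doxycycline and 1.674 ± 0.0426 with both. The rise with dTAG-13 alone was 0.95 on the log2 scale (SE 0.201, edgeR adjusted p 7.5e-05). The rise with doxycycline, 0.54 (SE 0.211, adjusted p 0.045), was not called by DESeq2 (0.53, adjusted p 0.0812), was 0.31 without doxycycline replicate 1, and was also lost without control replicate 1 (0.504), 2 (0.538) or 3 (0.574) and with the length and GC correction (0.458). It was 0.551 (adjusted p 0.0504) when only these 2 groups were fitted. With both compounds against dTAG-13 the value was -0.59 (SE 0.198, adjusted p 0.0271), which was not called by DESeq2 (adjusted p 0.057), without dTAG-13 replicate 3 (-0.472), or without replicate 1 (-0.584), 2 (-0.583) or 3 (-0.617) of the group with both. With both against doxycycline it was -0.18 (SE 0.207, adjusted p 0.466), and 0.045 without doxycycline replicate 1. The interaction was -1.13 (SE 0.289, adjusted p 0.00341), in the direction of Cdkn1a.

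Zmat3 (Entrez 22401, chr3:32334792-32365665), a zinc finger RNA-binding protein that acts on splicing and transcript stability, was the only one of the 10 that fell with dTAG-13 in both settings. Its libraries held 37.1, 37.4 and 37.3 CPM in control, 35.1, 34.7 and 34.3 CPM with doxycycline, 26.9, 28.0 and 27.8 CPM with dTAG-13 and 23.5, 24.8 and 23.4 CPM with both, so that no 2 groups overlapped. The log2 fold change was -0.44 (SE 0.0473, edgeR adjusted p 1.35e-10) against control and -0.54 (SE 0.0497, adjusted p 1.66e-12) against doxycycline. Both were smaller with the length and GC correction, at -0.15 (adjusted p 0.0044) and -0.18 (adjusted p 0.00229), and still called. Doxycycline gave -0.10 (SE 0.0461, adjusted p 0.08) without dTAG-13 and -0.21 (SE 0.0509, adjusted p 0.00272) with it, and the interaction was -0.10 (SE 0.0687, adjusted p 0.31). The doxycycline value without dTAG-13 was called with the correction (-0.157, adjusted p 0.00493). Zmat3 overlaps the non-coding gene 4930429B21Rik in the RefSeq table, as Eda2r overlaps Gm18111, and reads of such pairs may not be separable.

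Sesn1 (Entrez 140742, chr10:41810574-41908436) encodes sestrin 1, a stress protein that restrains mTORC1. It was at 9.35, 10.1 and 10.2 CPM in control, 11.8, 11.7 and 12.4 CPM with doxycycline, 10.1, 11.6 and 11.95 CPM with dTAG-13 and 10.5, 11.6 and 12.7 CPM with both. Of the pairs of groups tested, only doxycycline and control did not overlap, with a rise of 0.27 on the log2 scale (SE 0.0836, edgeR adjusted p 0.00965) that was not called without control replicate 1 (0.228) or doxycycline replicate 3 (0.24). dTAG-13 gave 0.18 (SE 0.0842, adjusted p 0.0616) against control, which was called when only library size was scaled (0.271), with the length and GC correction (0.23), with the filter of 1 CPM in 3 libraries (0.187) and without dTAG-13 replicate 1 (0.245), and -0.04 (SE 0.0834, adjusted p 0.716) against doxycycline. The interaction was -0.22 (SE 0.118, adjusted p 0.196). Without control replicate 1, both Sesn1 and Trp53inp1 lost their doxycycline call, which left 2 of the 10 genes called in that comparison, both lower.

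**Figure D3:**
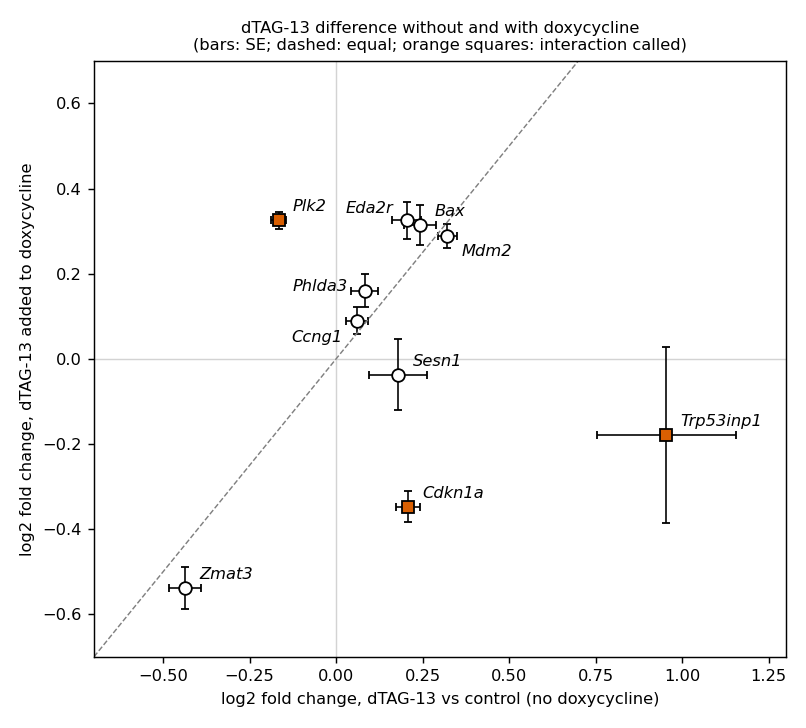
Log2 fold change with SE for dTAG-13 alone (horizontal axis) and for dTAG-13 added to doxycycline (vertical axis), 1 point per p53 target gene; the dashed line marks equal values. The 3 orange squares, Cdkn1a, Plk2 and Trp53inp1, were called in the interaction test, and the other 7 genes were not.

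The dTAG-13 comparisons in these libraries carry a trend with transcript length, which bears on how the 10 values are read. The tested genes with an annotated transcript length were ranked by it and split into 8 equal bins. Medians ran from 0.21 in the bin of shortest transcripts to -0.28 in that of the longest for dTAG-13 against control, and from 0.34 to -0.38 for dTAG-13 added to doxycycline. Bax and Phlda3, with longest transcripts of 1100 and 1435 bases, belong to the shortest bin. Bax at 0.24 and 0.32 lay near its medians, and Phlda3 at 0.08 and 0.16 lay below both. Zmat3, with 7797 bases, belongs to the longest bin, and at -0.44 and -0.54 it lay below both medians. Mdm2 (3145 bases) and Eda2r (4752 bases) lay above the medians of their bins, which were 0.02 and -0.02 for Mdm2 and -0.07 and -0.12 for Eda2r. Cdkn1a (2080 bases) was above the median of its bin without doxycycline, 0.21 against 0.11, and below it with doxycycline, -0.35 against 0.16. Plk2 (2800 bases) was below its bin median without doxycycline, -0.17 against 0.07, and above it with doxycycline, 0.33 against 0.07. Trp53inp1 (5432 bases) was above its bin median without doxycycline, 0.95 against -0.13, and near it with doxycycline, -0.18 against -0.20. With the length and GC correction Cdkn1a, Mdm2, Bax, Eda2r, Plk2 and Zmat3 kept their direction and their call in both dTAG-13 comparisons.

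**Figure D4:**
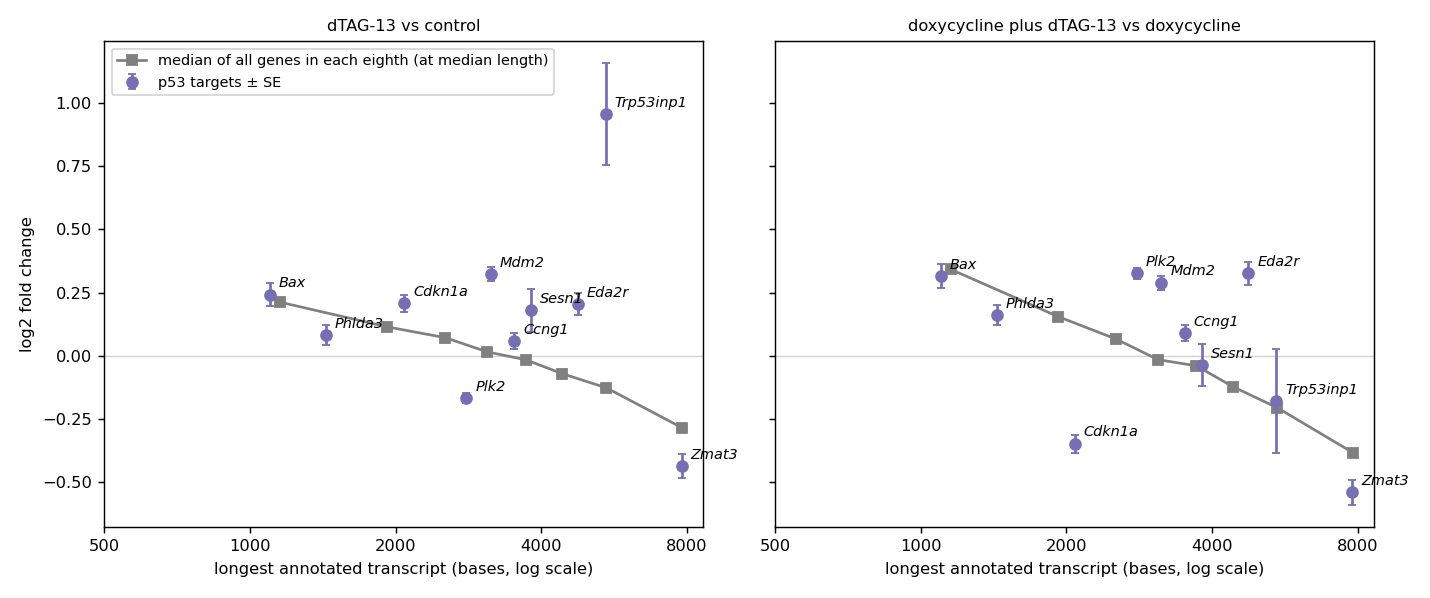
Log2 fold change of the p53 target genes (points with SE) against the length of the longest annotated transcript (log axis, bases) in the 2 dTAG-13 comparisons. Grey squares are medians of the tested genes with an annotated transcript length in each of 8 bins of length. The line falls from 0.21 to -0.28 on the left and from 0.34 to -0.38 on the right, and Zmat3 lies below its right end in both.

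Trp53, which encodes p53, was at 122.4 ± 7.12 CPM in control, 124 ± 3.65 CPM with doxycycline, 102.3 ± 2.73 CPM with dTAG-13 and 101.6 ± 3.58 CPM with both (mean ± SD, n = 3). The highest of the 6 libraries with dTAG-13, at 105.6 CPM, lay below the lowest of the 6 without it, at 115.9 CPM. The log2 fold change with dTAG-13 was -0.26 (SE 0.0351, edgeR adjusted p 6.24e-08) against control and -0.29 (SE 0.0356, adjusted p 7.29e-09) against doxycycline, and that of doxycycline alone was 0.02 (SE 0.0346, adjusted p 0.723). The transcript of p53 thus fell in the same libraries in which Mdm2, Bax and Eda2r rose. Its relatives Trp63 and Trp73 did not pass the filter, with Trp63 at 0 CPM in every group.

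Of 20 genes that regulate p53, 18 were tested. With dTAG-13 against control 4 were higher and 10 lower, with a median log2 fold change of -0.12, where 30.0% of all genes were higher and 32.1% lower. The split was 6 and 7 when only library size was scaled. The falls were led by Herc2, a giant ubiquitin ligase (-1.02, SE 0.0424, edgeR adjusted p 3e-23), and by the acetyltransferase Crebbp (-0.83, SE 0.0577, adjusted p 1.1e-14). When dTAG-13 was added to doxycycline 8 were higher and 7 lower (30.7% and 33.4% of all genes), with Herc2 (-0.84) and the kinase Hipk2 (-0.69) lowest and the ribosomal proteins Rpl5 (0.72, SE 0.103, adjusted p 0.000242) and Rpl11 (0.62, SE 0.15, adjusted p 0.00578), which bind Mdm2, highest. Ribosomal protein genes have many processed copies in the genome, so their counts are uncertain. Rpl5 (0.51) and the ubiquitin ligase Rchy1 (0.29) rose most against control. The values of single regulators carry no correction for the trend with transcript length. Over all genes with a length, medians in the shortest and longest bins were 0.21 and -0.28 against control. They were 0.34 and -0.38 when dTAG-13 was added to doxycycline.

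Mdm4, the Mdm2 partner that blocks p53 activation, was at 54.87 ± 1.1 CPM in control, 58.38 ± 0.55 CPM with doxycycline, 61.39 ± 0.863 CPM with dTAG-13 and 61.64 ± 0.708 CPM with both, and rose with dTAG-13 against control (0.16, SE 0.0368, edgeR adjusted p 2e-04). Against doxycycline it gave 0.08 (adjusted p 0.0641). Doxycycline against control called 1 regulator higher, Trp53bp1 (0.12, adjusted p 0.00664), and 4 lower, where 14.8% of all genes were higher and 18.7% lower. Cdkn2a, whose Arf product sequesters Mdm2, fell by 0.31 on the log2 scale (SE 0.0636, adjusted p 0.000132), from 21.23 ± 1.56 to 17.11 ± 0.858 CPM, and the p53 phosphatase Ppm1d fell by 0.26 (SE 0.0632, adjusted p 0.00125). Both were higher again when dTAG-13 was added to doxycycline (Cdkn2a 0.45, adjusted p 5.81e-08, and Ppm1d 0.18, adjusted p 0.0156), and their interactions were called (0.39, adjusted p 0.00102, and 0.37, adjusted p 0.00221). With both compounds against dTAG-13 only Herc2 was called (0.15, adjusted p 0.0144), where 10.7% of all genes were higher and 9.64% lower. The count of regulators called was 0 to 3 when single libraries were left out (0 without dTAG-13 replicate 3, 3 without dTAG-13 replicate 1).

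All 16 DNA damage kinases and their partners were tested. With dTAG-13 against control 3 were higher and 8 lower, and when it was added to doxycycline 2 were higher and 9 lower. These 11 calls in each comparison stand beside 62.1% and 64.1% of all genes called, and the first split was 5 higher and 10 lower with the length and GC correction. Mdc1, the scaffold that binds phosphorylated H2AX, fell in both (-0.48 and -0.53), as did Rad50 (-0.36 and -0.41). The kinase Atm also fell in both (-0.36, edgeR adjusted p 3.92e-09, and -0.42, adjusted p 8.21e-11). Rad1 rose in both (0.29 and 0.17), Chek2 rose against control (0.28, adjusted p 1.36e-05) and Chek1 against doxycycline (0.10, adjusted p 0.0415). Doxycycline against control called 4 higher and 0 lower, where 14.8% of all genes were higher and 18.7% lower. With the length and GC correction the split was 2 higher and 3 lower. Prkdc (0.42, edgeR adjusted p 5.99e-05) and Chek2 (0.26, adjusted p 0.000106) were the highest. With both compounds against dTAG-13, H2ax (0.18) and Chek1 (0.15) were higher and Topbp1 (-0.07) lower. Of all genes, 10.7% were higher and 9.64% lower there. The split of 2 and 1 became 2 and 4 when only library size was scaled.

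Among 50 other p53 targets, 46 were tested. Doxycycline against control called 10 higher and 14 lower, with a median of 0.01, where 14.8% of all genes were higher and 18.7% lower. dTAG-13 called 9 higher and 15 lower against control and 13 higher and 15 lower against doxycycline, with medians of -0.01 and -0.02; of all genes 30.0% were higher and 32.1% lower in the first comparison, and 30.7% and 33.4% in the second. The first split turned to 14 higher and 8 lower when only library size was scaled, and was 10 and 11 with the length and GC correction. Under library size alone the doxycycline split was 12 and 11. With both compounds against dTAG-13, 10 were higher and 5 lower, where 10.7% of all genes were higher and 9.64% lower. That split was 6 and 7 under library size alone. The death receptor Fas rose with doxycycline (0.72, edgeR adjusted p 0.0121) and with dTAG-13 (0.83, adjusted p 0.00146), from 1.119 ± 0.265 CPM in control to 1.849 ± 0.229 and 1.995 ± 0.417 CPM. Trp53cor1, a long non-coding RNA encoded next to Cdkn1a, rose with both as well (0.45, adjusted p 0.0333, and 0.75, adjusted p 0.000107), at 2.836 ± 0.426, 3.862 ± 0.79 and 4.735 ± 0.443 CPM.

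Sesn2, the paralogue of Sesn1, fell with doxycycline (-0.44, SE 0.0305, edgeR adjusted p 2.85e-15) and with dTAG-13 (-0.63, SE 0.0308, adjusted p 7.12e-21), while Sesn1 gave 0.27 and 0.18. The p53 regulator and mitotic protein Gtse1 fell with dTAG-13 in both settings (-0.67 and -0.46). Apaf1, the scaffold of the apoptosome, also fell in both, by 0.27 against control and 0.46 against doxycycline. In that comparison the phosphatase Dusp1 (1.1999, adjusted p 3.51e-12) and the stress gene Gadd45g (0.94, adjusted p 1.19e-19) rose most among targets with a mean of at least 1 CPM. Dusp1 had fallen with doxycycline alone (-0.57, adjusted p 0.00018), as Plk2 had. Unlike Plk2, it did not differ between dTAG-13 and control (-0.01, edgeR adjusted p 0.92). With both compounds against dTAG-13, Dusp1 (0.64) and Pltp (0.42) were the largest of 10 higher calls, and the mTORC1 inhibitor Ddit4 (-0.38, adjusted p 0.00211) and the polymerase Polk (-0.22) the largest of 5 lower calls.

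A list of 20 cell cycle genes that p21 represses through the DREAM complex was set beside Cdkn1a; all 20 were tested, and Chek1 is also on the DNA damage list. With dTAG-13 against control, where Cdkn1a rose, 14 were lower and 3 higher, with a median of -0.27, where 32.1% of all genes were lower and 30.0% higher. Where dTAG-13 was added to doxycycline and Cdkn1a fell, 11 were lower and 4 higher, with a median of -0.08, where 33.4% of all genes were lower and 30.7% higher. Cenpf (-0.83 and -0.63) and Plk1 (-0.82 and -0.60), which act in mitosis, fell most in both comparisons. Bub1 rose in the first (0.19) and Cdk1 in both (0.09 and 0.27). These values carry no correction for the trend with transcript length in the dTAG-13 comparisons. When only library size was scaled, the median of all genes for dTAG-13 against control moved from 0.02 to 0.11. The split of 14 and 3 is that of the main scaling. With both compounds against dTAG-13, Cdkn1a was lower as well, and 12 of the list were higher and 1 lower, with a median of 0.14. Of all genes, 10.7% were higher and 9.64% lower there. The calls were led by Cdc25c (0.24, edgeR adjusted p 0.000252) and Top2a (0.22, adjusted p 1.5e-12), and Mybl2 was the lower one (-0.19). Doxycycline against control called 4 higher and 6 lower, with a median of -0.01, where 14.8% of all genes were higher and 18.7% lower. The split was 5 and 4 when only library size was scaled, and 4 and 8 with the length and GC correction. Among the calls were Bub1 (0.15), Top2a (0.15) and Mybl2 (-0.28). These comparisons share libraries, so the counts are given side by side only.

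**Figure D5:**
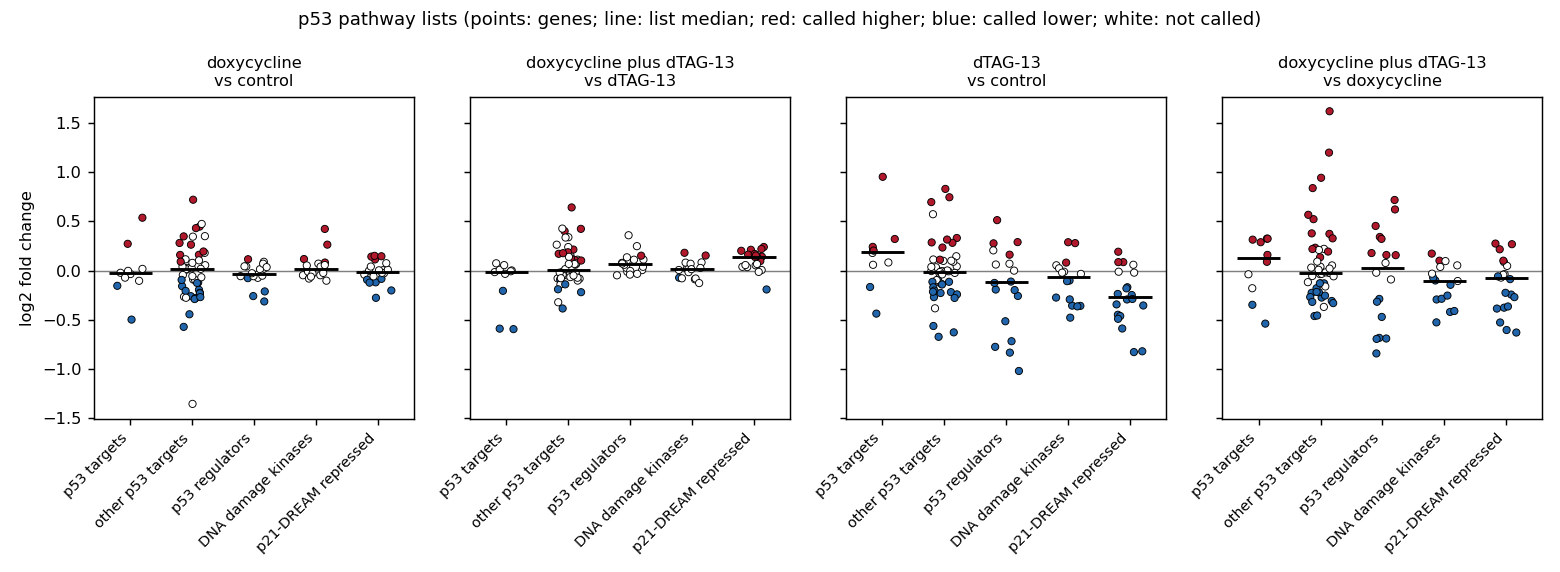
Log2 fold change of every tested gene on 5 p53 pathway lists in the 4 pairwise comparisons; points are genes, lines are list medians, and red, blue and white mark genes called higher, called lower and not called. The median of the p21-DREAM list is -0.27 with dTAG-13 alone relative to control and 0.14 where both compounds are compared with dTAG-13.

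The genes with profiles most like those of Cdkn1a and Mdm2 were found by the Euclidean distance between centred mean log2 CPM over the 4 groups, among 9096 genes whose mean was 10 CPM or more. For Cdkn1a these were Plcxd2 (distance 0.11), Slc26a11 (0.12) and Egln3 (0.14). Egln3 gave log2 fold changes of -0.03 for doxycycline, 0.05 for dTAG-13 and -0.34 for dTAG-13 added to doxycycline. For Mdm2 they were Eapp (0.0111), Ddit3 (0.0173) and Serpinh1 (0.0179), whose log2 fold changes were 0.33, 0.31 and 0.31 for dTAG-13 against control.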

How the data were processed

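RNA from 12 libraries of MC38-idAdpgkG cells was made into poly(A) libraries with NEBNext Ultra II chemistry, per the labels' protocols. The values the authors deposited are counts of reads per Entrez gene, in 1 table and not normalized. The reads were aligned with Subread, per the file headers, and bcl2fastq 2.17, featureCounts and mm10 are named in the submitters' processing notes. For the strand setting and multi-mapping reads, the rule is not given in the sources used here.

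Symbols came from RefSeq of GRCm38.p6 (25275 IDs) and GENCODE M21 (18 IDs), and 1886 IDs with 2.097% of reads had none. Genes were filtered with filterByExpr. The main test was edgeR 4.0.16's quasi-likelihood test with robust dispersion (R 4.3.3; TMM factors 0.9647 to 1.0349; 1 mean per group over 12 libraries; two-sided; Benjamini-Hochberg over 12910 genes). SEs were derived from the fold change and F. CPM used TMM-scaled library sizes, and transcript length is that of the longest GENCODE transcript. Genes without such a length were left out of the length bins and received no length and GC offset. Technical libraries and PCR reads mean that errors cover library preparation and counting only. Libraries of a group were not equally alike by the chi-square of their counts per degree of freedom. With both compounds, replicate 3 gave 8.445 and 8.798 against replicates 1 and 2, which gave 2.754 against each other. The largest values in the other groups were 5.742 with doxycycline, 4.682 in control and 3.34 with dTAG-13.

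Alternatives were RLE size factors, library size only, DESeq2 1.42.0, no filter, 1 CPM in 3 libraries, only the groups compared, a replicate block, an offset for length and GC content (splines with 5 degrees of freedom), and leaving out each library. The code was tested on simulated data. The genes named were the 10 targets, Adpgk, Trp53, Mdm4, Cdkn2a and Ppm1d, per list and pairwise comparison the 2 called genes with the largest values in each direction at a mean of at least 1 CPM, and the 3 nearest profiles of Cdkn1a and Mdm2. 1 gene that this rule names is not reported here. Members, lists, rules and alternatives were chosen with earlier results of these data known. Tables and figures were made in Python 3.11.15 with pandas 2.3.3, numpy 2.4.6 and matplotlib 3.10.9.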

Additional observations from a re-analysis of the deposited data

Results flagged for a closer look

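The dTAG-13 difference depended on doxycycline for 3 of the 10 p53 targets, by edgeR's test of the interaction with Benjamini-Hochberg adjustment over all genes, where 22.9% of all genes were called. For Cdkn1a the log2 fold change with doxycycline minus that without was -0.5551 (SE 0.0501, adjusted p 3.15e-11), from 0.2077 without doxycycline to -0.3474 with it. For Plk2 it was 0.4917 (SE 0.0292, adjusted p 1.17e-16), from -0.1664 to 0.3253. For Trp53inp1 it was -1.1329 (SE 0.289, adjusted p 0.00341), from 0.9539 to -0.179, on at most 86 reads per library; the last value was 0.045 without doxycycline replicate 1. Each group was 1 biological sample, so the doxycycline setting and the culture cannot be told apart.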

How the results depend on the processing

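The 10 genes in 5 contrasts gave 50 log2 fold changes, and 40 of them kept their side of the threshold, and their direction where called, under every alternative run. Of 990 recomputed values 959 did so, 17 lost a call, 12 gained one and 2 reversed. Both reversals were Ccng1 with the length and GC correction, to -0.142 for dTAG-13 against control and to -0.063 for dTAG-13 added to doxycycline. Without single libraries, the number of the 10 genes called was 2 to 4 for doxycycline against control, 7 to 9 for dTAG-13 against control, 7 to 8 for dTAG-13 added to doxycycline, 2 to 3 for both compounds against dTAG-13 and 3 for the interaction. The low value of 2 arose without control replicate 1. All genes called ran, in the same order, from 3485 to 4449, 7482 to 8075, 7734 to 8341, 1990 to 2832 and 2374 to 3042. With the replicate number as a block, the Trp53inp1 call for doxycycline was lost (0.536, adjusted p 0.0522), which left 3 of the 10 called, and the other counts were 7, 8, 3 and 3; no other call on the 10 genes changed. Same-numbered libraries of different groups did not deviate together (median r = 0 over 18 pairs, from -0.201 to 0.186), so the numbers were not taken as pairs. Trp53inp1 is limited by its 37 to 86 reads per library.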
